A study of Saccharomyces cerevisiae with 27 samples.

Results

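The nuclear genes that encode subunits of the yeast respiratory chain and of the ATP synthase were followed across the genotypes, break states and experiments of a microarray study. They were chosen by name: the subunits of complexes II, III, IV and V, both forms of cytochrome c and a pair of NADH dehydrogenases, each read through the probe set that the platform annotation gives to it. All 38 listed genes were measured, with 1 probe set each, out of 5434 named genes on the array. They comprised 4 genes of complex II, 9 of complex III, 2 of cytochrome c, 9 of complex IV, 12 of complex V and 2 NADH dehydrogenases.

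The respiratory chain passes electrons from NADH and succinate to oxygen in the inner mitochondrial membrane, and the proton gradient it builds drives the ATP synthase. Budding yeast has no proton-pumping complex I and uses single-subunit NADH dehydrogenases in its place, with succinate dehydrogenase as complex II, the cytochrome bc1 complex as complex III, cytochrome c oxidase as complex IV and the ATP synthase as complex V. Most subunits are made from nuclear genes, whose transcription in yeast follows the carbon source, haem and oxygen through the Hap2/3/4/5 and Hap1 activators and the Rox1 and Mig1 repressors. A few core subunits are encoded in the mitochondrial genome. The 7 listed mitochondrial genes (COX1, COX2, COX3, COB, ATP6, ATP8 and OLI1) and COX26 were not analysed here.

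All cells were haploid budding yeast of the W303 background, grown in rich medium with 2% raffinose, held in G2/M and moved to a higher temperature, which the labels do not state. Galactose was added 30 min after the shift and cells were collected 90 min after that. For every array the labels also list a zymolase treatment of 1 h at 30 °C. The groups were scc2-4 with a break, wild type with a break, scc2-4 without a break and wild type without a break. scc2-4 is a temperature-sensitive allele of SCC2, which encodes a subunit of the cohesin loader, and the break is the cut that galactose-induced HO endonuclease makes in cells that carry its site. Galactose is listed for all groups, and the labels place the break on chromosome VI in one field and on chr.iv in another. The break states are therefore taken here to be separate strains, in which the cut and any other strain difference cannot be told apart. Each group had 3 arrays in experiment 1 and 4 in experiment 2, except wild type with a break, which had 3 in each. The labels call the arrays biological replicates without saying whether they came from separate cultures, so p-values measure the spread between these arrays.

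The 27 arrays carried log2 expression values (RMA, a log2 summary of the probes of a probe set), and the number of arrays limits the precision. Their value distributions fell into 3 sets, namely experiment 1, the wild-type arrays of experiment 2 and the scc2-4 arrays of experiment 2. Arrays differed by a mean of 0.00818 to 0.0302 log2 units between sorted values within a set and by 0.147 to 0.425 between sets. In experiment 2, genotype and set cannot be told apart, so the genotype differences tested are those of experiment 1. All 27 arrays gave the spread for these tests. The differences of experiment 2 are given as values beside them. GAL1 lay at 13.96 to 14.12 and HO at 13.41 to 13.73 log2 units on the 27 arrays, among the brightest genes in every group. In experiment 1 without a break, HO was 0.16 higher in scc2-4 (limma adjusted p = 0.0145). SCC2 was lower in scc2-4 in experiment 1, with differences of −0.49 with a break and −0.35 without a break (limma adjusted p = 1.21e-07 and 1.01e-05), which does not check the labels because the allele changes the protein. Genes specific to haploid cells (5) lay at 8.73 to 12.47 log2 units, and genes of the G2/M arrest (4) at 7.13 to 10.56. The G2/M genes moved with the comparisons: in experiment 1 without a break, scc2-4 had 3 of 4 lower (median −0.20), and in wild type 4 of 4 were lower with a break (median −0.28). CLB2, a mitotic cyclin, fell by 0.41 and by 0.35 in those comparisons (limma adjusted p = 0.000225 and 5.88e-05). With a break none of the 4 was called between genotypes (median 0.00), and in experiment 2 all 4 were higher in scc2-4 (medians 0.61 with a break and 0.52 without a break). Their part in the results below was not tested. Genes specific to MATa cells (6) lay at 4.63 to 8.21 and those of MATalpha cells (4) at 4.02 to 8.75, and the labels state no mating type.

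Within experiment 1, the arrays of every group split further. The first principal component of all genes' deviations from their group means held 71.0% of that variation, and its sign put 6 arrays in a class named A here and 6 in a class named B. Class A held 1 of 3 arrays in each genotype with a break and 2 of 3 in each genotype without a break. The labels name nothing that matches the classes. The 38 genes moved with them: 32 were higher in class B than in class A, with a median difference of 0.09 log2 units against 0.00 over all genes. CYC1 differed most (0.55 higher in class B), then ATP20 (0.36 higher) and COX5B (−0.27). Since both genotypes hold the same numbers of each class, the genotype estimates were equal with and without the class in the model, whereas the break estimates were not.

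**Figure D1:**
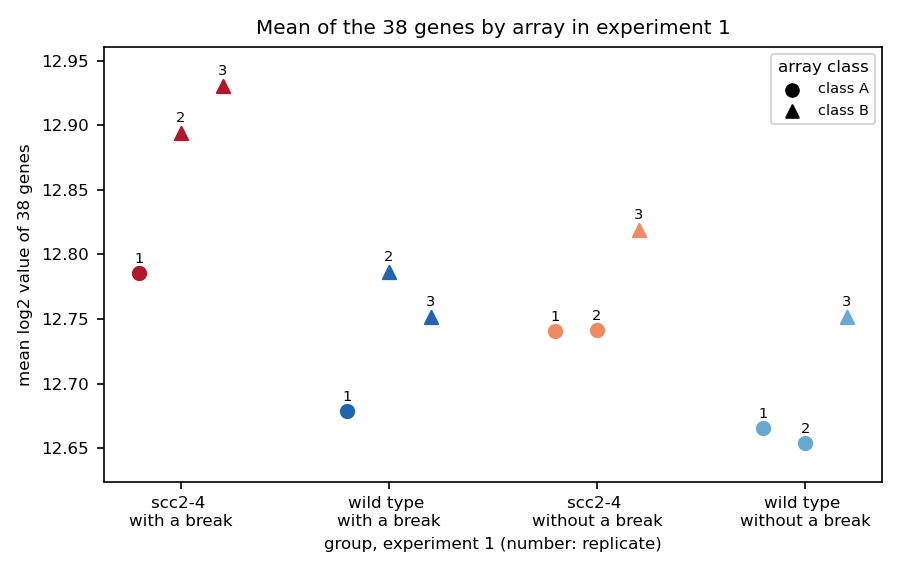
Mean log2 value of the 38 genes on each array of experiment 1, by group, with circles for class A and triangles for class B and the replicate number above each point. Class B arrays lie above class A arrays in every group, and each scc2-4 array lies above the wild-type arrays of its own class and break state.

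The first comparison set scc2-4 against wild type. In experiment 1, 16 of the 38 genes were higher in scc2-4 than in wild type with a break and 9 were higher without a break, at an adjusted p under 0.05 in limma, and no gene was lower in either comparison. The background over all 5434 genes was 36.3% called with a break (19.2% higher and 17% lower) and 34.5% called without a break (17.8% higher and 16.7% lower). Among the 38 genes the share called higher was 42.1% with a break and 23.7% without a break. The median difference of the 38 genes was 0.11 with a break and 0.06 without a break, against 0.01 and 0.00 over all genes, and 36 and 29 of the 38 were positive. The differences were small, from −0.14 to 0.48 with a break and from −0.11 to 0.50 without a break on the log2 scale.

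The genes called were SDH3, COR1, QCR6, QCR7, QCR9, QCR10, COX4, COX7, ATP4, ATP7, ATP14, ATP15, ATP16, ATP18, ATP20 and NDI1 with a break, and SDH3, SDH4, COR1, QCR10, COX7, ATP7, ATP18, ATP20 and NDI1 without a break. The lists shared 8 genes, which is 50% of the first and 88.9% of the second, and 21 genes were in neither. These comparisons use different arrays. The counts 16 and 9 do not show that the break changed the genotype difference: the test of that difference, over both experiments, called 0 of the 38 genes in limma, with 3 at an unadjusted p under 0.05. At an unadjusted p under 0.05, 23 genes differed between genotypes with a break and 11 without a break. Of the 1324 genes in the members' range of levels, 20.8% with a break and 19% without a break were higher at that threshold. When each array was first centred on its median, 15 genes were higher and none lower with a break, and 4 were higher and 1 (NDE1, −0.13, limma adjusted p = 0.0352) lower without a break. Over all 5434 genes, centring gave 994 higher and 986 lower with a break, and 818 higher and 1084 lower without a break. Without a break, the share of the 38 genes called higher was thus not above that of all genes. Fitted to the arrays of experiment 1 alone, limma called 13 genes with a break and 5 without a break, all higher. Over all genes that fit gave 915 higher and 787 lower with a break, and 839 higher and 730 lower without a break. COR1, COX4 and ATP16 lost their calls with a break (limma adjusted p = 0.156, 0.0536 and 0.0615). SDH4, COR1, ATP7 and NDI1 lost theirs without a break (limma adjusted p = 0.0857, 0.161, 0.107 and 0.0594). Leaving out wild type without a break replicate 1 or replicate 2 of experiment 1 left 5 and 4 genes called without a break. Leaving out scc2-4 with a break replicate 1, a class A array, gave 28 with a break. With the array class as a covariate, limma called 26 genes with a break, all higher, and 14 without a break, of which 13 were higher. Over all genes the covariate gave 2432 called with a break and 2359 without a break, of which 1251 and 1196 were higher. Those p-values are too small, because the classes were found in the same values.

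In experiment 1, same-numbered arrays of the genotypes within a break state correlated at 0.33 to 0.77 in their deviations over all genes. Not every array correlated best with its own number. Same-numbered arrays also shared an array class, so number and class cannot be told apart. With the replicate number as a block, limma called 20 genes with a break, all higher, and 12 without a break, of which 11 were higher and NDE1 (−0.11) was lower. Over all genes the block gave 2302 called with a break and 2255 without a break, of which 1208 and 1158 were higher. The block added SDH1, SDH4, CYC1 and COX12 with a break (adjusted p = 0.0139, 0.0384, 0.0199 and 0.0221) and SDH2, ATP15 and NDE1 without a break (adjusted p = 0.0379, 0.0422 and 0.021). The block is shared by both break states, between which the numbers did not pair the arrays. The calls with the block rest on that shared term, so they cannot decide these genes.

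**Figure D2:**
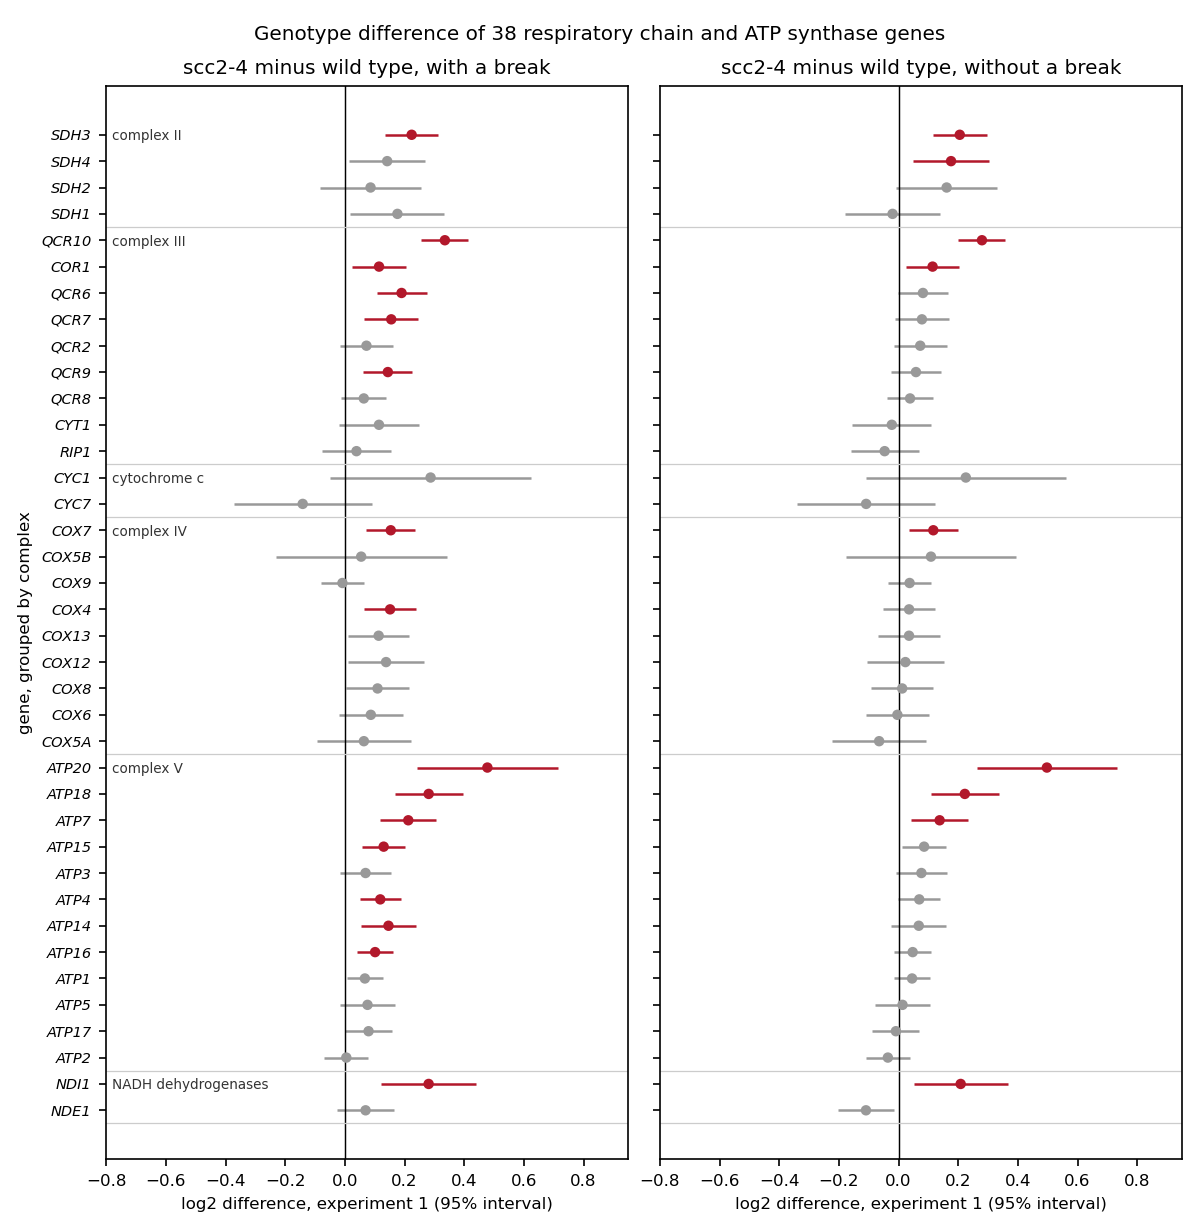
Log2 difference between scc2-4 and wild type in experiment 1 for each of the 38 genes, grouped by complex, with a break on the left and without a break on the right; points are limma estimates from 3 against 3 arrays, bars are 95% intervals and red marks an adjusted p under 0.05. Every red point lies right of 0, and ATP20 has the largest difference in both panels (0.48 with a break and 0.50 without a break).

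The 38 genes were among the brighter ones, with mean levels of 11.19 to 13.73 log2 units (median 12.92). Of all genes, 1324 lay in that range of levels, and 17% of them were called higher in scc2-4 with a break and 14.4% without a break, with medians of 0.00 and −0.01. Above a level of 13, 7 of 14 members were called with a break and 2 of 14 without a break, against 9 of 24 and 7 of 24 at lower levels. The spread between replicates was narrower for the members (median residual SD 0.051) than for all genes (0.082).

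Complex II oxidises succinate and feeds its electrons to ubiquinone, through a soluble catalytic part (SDH1, the flavoprotein, and SDH2, the iron-sulphur subunit) and a membrane anchor (SDH3 and SDH4). SDH3 was at 12.60, 12.66 and 12.62 in scc2-4 with a break, against 12.35, 12.43 and 12.43 in wild type with a break. Without a break it was at 12.52, 12.55 and 12.54 in scc2-4 and 12.34, 12.31 and 12.35 in wild type. All 6 scc2-4 arrays thus lay above all 6 wild-type arrays, and SDH3 rose in scc2-4 by 0.22 ± 0.043 with a break and 0.21 ± 0.043 without a break (log2, SE, limma adjusted p = 0.000337 and 0.000845). SDH4 rose without a break (0.18 ± 0.061, adjusted p = 0.0298) and differed by 0.14 with a break (adjusted p = 0.0759).

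The catalytic subunits varied more between replicates. SDH1 was at 12.13, 12.25 and 12.45 in scc2-4 with a break, against 11.997, 12.178 and 12.130 in wild type with a break. In the absence of a break it was at 12.06, 12.01 and 12.34 in scc2-4 and 12.11, 12.08 and 12.28 in wild type. The genotypes overlapped in both break states, with differences of 0.18 with a break (adjusted p = 0.0755) and −0.02 without a break (adjusted p = 0.862). SDH2 differed by 0.09 and 0.16, neither past the threshold (adjusted p = 0.442 and 0.134).

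Complex III moves electrons from ubiquinol to cytochrome c. Its members here are cytochrome c1 (CYT1), the Rieske iron-sulphur protein (RIP1), the core proteins (COR1 and QCR2) and small subunits without a redox centre (QCR6 to QCR10). QCR10 was at 13.03, 13.11 and 13.11 in scc2-4 with a break, against 12.78, 12.76 and 12.70 in wild type with a break. Without a break it was at 12.99, 12.95 and 12.91 in scc2-4 and 12.67, 12.67 and 12.67 in wild type. The genotypes did not overlap, and QCR10 rose in scc2-4 by 0.34 ± 0.038 with a break and 0.28 ± 0.038 without a break (adjusted p = 7.32e-07 and 7.61e-06), a fold of 1.26 and 1.21. In scc2-4 with a break, QCR6, QCR7 and QCR9 also rose, by 0.19, 0.16 and 0.14 (adjusted p = 0.000804, 0.00809 and 0.00687), and COR1 rose by 0.11 in both break states (adjusted p = 0.042 with a break and 0.0446 without a break).

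The redox subunits of complex III did not pass the test. CYT1 was at 12.62, 12.79 and 12.88 in scc2-4 with a break and 12.56, 12.71 and 12.68 in wild type with a break. In the absence of a break it was at 12.55, 12.55 and 12.71 in scc2-4 and 12.58, 12.53 and 12.75 in wild type, so the genotypes overlapped. The differences of CYT1 were 0.11 with a break and −0.02 without a break, and those of RIP1 were 0.04 and −0.05. QCR2 and QCR8 differed by 0.04 to 0.07 in both break states, with adjusted p of 0.185 or more.

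Cytochrome c, the soluble carrier between complexes III and IV, has an aerobic form (CYC1) and a form used mainly at low oxygen (CYC7). CYC1 was at 12.66, 13.10 and 13.14 in scc2-4 with a break, against 12.24, 12.92 and 12.88 in wild type with a break. Without a break it was at 12.48, 12.61 and 13.02 in scc2-4 and 12.27, 12.28 and 12.88 in wild type. Replicates of one group differed from each other by more than the genotypes did, with class A arrays lower in every group, and the genotype differences of 0.29 with a break and 0.23 without a break did not pass the test (adjusted p = 0.176 and 0.299). CYC7 was at 11.27, 11.06 and 11.14 in scc2-4 with a break, against 11.34, 11.30 and 11.27 in wild type with a break, and at 11.23, 11.13 and 10.86 in scc2-4 without a break, against 11.27, 11.20 and 11.09 in wild type without a break. Its differences were −0.14 and −0.11 (adjusted p = 0.345 and 0.482).

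Complex IV reduces oxygen with electrons from cytochrome c, and its nuclear subunits surround a core encoded in the mitochondrial genome. COX7 was at 12.83, 12.87 and 12.86 in scc2-4 with a break, against 12.69, 12.73 and 12.68 in wild type with a break. In the absence of a break it was at 12.77, 12.82 and 12.73 in scc2-4 and 12.66, 12.65 and 12.66 in wild type. The genotypes did not overlap, though the closest arrays were both at 12.73 when rounded, and COX7 rose by 0.15 ± 0.040 with a break and 0.12 ± 0.040 without a break (adjusted p = 0.0041 and 0.0259). COX4 rose with a break (0.15, adjusted p = 0.00667) and differed by 0.04 without a break (adjusted p = 0.545).

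The other complex IV genes did not pass the test in either break state. COX6 was at 12.82, 13.01 and 13.03 in scc2-4 with a break, against 12.78, 12.93 and 12.88 in wild type with a break. Without a break it was at 12.77, 12.80 and 12.92 in scc2-4 and 12.82, 12.77 and 12.91 in wild type, with the genotypes interleaved. Its differences were 0.09 with a break and −0.00 without a break. COX8, COX12 and COX13 differed by 0.11 to 0.14 with a break (adjusted p = 0.0947, 0.0872 and 0.079) and by 0.01 to 0.04 without a break.

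Complex V makes ATP as protons flow through its membrane part and turn a rotor inside a catalytic head. ATP20 encodes subunit g, a small membrane subunit found in ATP synthase dimers. It was at 12.22, 12.55 and 12.59 in scc2-4 with a break, against 11.72, 12.12 and 12.08 in wild type with a break, and at 12.25, 12.22 and 12.59 in scc2-4 without a break, against 11.74, 11.72 and 12.10 in wild type without a break. Every scc2-4 array lay above every wild-type array, and in each group the class A arrays were the lower ones. ATP20 rose in scc2-4 by 0.48 ± 0.114 with a break and 0.50 ± 0.114 without a break (adjusted p = 0.00216 and 0.00167), a fold of 1.39 and 1.41. Within each array class and break state the difference was 0.47 to 0.50.

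ATP18, another small membrane subunit, rose by 0.28 and 0.22 (adjusted p = 0.000365 and 0.00316). ATP17, the membrane subunit f, did not pass the test: it was at 12.51, 12.63 and 12.67 in scc2-4 with a break, against 12.50, 12.57 and 12.52 in wild type with a break, and at 12.44, 12.47 and 12.52 in scc2-4 without a break, against 12.49, 12.47 and 12.48 in wild type without a break. Its differences were 0.08 and −0.01 (adjusted p = 0.109 and 0.878). In the peripheral stalk, which holds the head still, ATP7 rose in both break states (0.21 and 0.14, adjusted p = 0.00087 and 0.0224), and ATP4 and ATP14 rose with a break (0.12 and 0.15, adjusted p = 0.00795 and 0.0131). In the head and central stalk, ATP15 and ATP16 rose with a break (0.13 and 0.10, adjusted p = 0.00563 and 0.0094), while the catalytic ATP1 and ATP2 differed by 0.07 and 0.00 with a break and by 0.05 and −0.04 without a break, none past the threshold. ATP3 and ATP5 did not pass the test in either break state.

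Within the membrane part the genes differed widely, as a grouping made after the values were seen and given without a test shows. ATP20 and ATP18 together with TIM11 (subunit e) and ATP19 (subunit k), which are not among the 38 genes, differed by 0.28 to 0.48 with a break and 0.22 to 0.50 without a break, whereas the membrane subunit ATP17 differed by 0.08 and −0.01. The 5 genes of the head and central stalk differed by 0.00 to 0.13 and −0.04 to 0.09, and the 4 of the peripheral stalk by 0.08 to 0.21 and 0.01 to 0.14. In experiment 2 the same 4 membrane subunits differed by 0.62 to 1.11 with a break and 0.61 to 1.07 without a break. ATP17 differed by 0.36 and 0.38 there, and the head and central stalk by 0.22 to 0.53 and 0.16 to 0.60. The peripheral stalk differed by 0.36 to 0.74 and 0.37 to 0.82, which overlaps the 4 membrane subunits. Genotype and set cannot be told apart in that experiment.

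NDI1, the NADH dehydrogenase facing the matrix, was at 12.05, 12.01 and 12.30 in scc2-4 with a break, against 11.80, 11.88 and 11.85 in wild type with a break. In the absence of a break it was at 12.05, 12.04 and 12.23 in scc2-4 and 11.90, 11.91 and 11.89 in wild type. The genotypes did not overlap, and NDI1 rose by 0.28 ± 0.076 and 0.21 ± 0.076 (adjusted p = 0.00602 and 0.0382). NDE1, which faces the space between the membranes and oxidises cytosolic NADH, was at 13.25, 13.28 and 13.39 in scc2-4 with a break, against 13.17, 13.28 and 13.26 in wild type with a break. Without a break it was at 13.12, 13.12 and 13.24 in scc2-4 and 13.20, 13.26 and 13.34 in wild type, so the genotypes overlapped in both break states. Its differences had opposite signs, 0.07 with a break and −0.11 without a break (adjusted p = 0.252 and 0.0692). The test of the difference between break states, over both experiments, gave a limma adjusted p of 0.0625 for NDE1. With the replicate number as a block that difference was called (0.14, limma adjusted p = 0.019). That block also ties same-numbered arrays across break states, where the numbers did not pair the arrays, so the call cannot decide the difference.

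In experiment 1, 6 of the 38 genes (SDH3, QCR6, QCR10, COX7, ATP20 and NDI1) had all 6 scc2-4 arrays above all 6 wild-type arrays, and none had them below. Over all genes, 12.5% lay above without overlap and 10.4% below. In experiment 2, 36 of the 38 genes were higher in scc2-4 with a break and 35 without a break, with medians of 0.44 and 0.39, but the median of all genes was 0.23 and 0.24 there and genotype and set cannot be told apart. After quantile normalization of all 27 arrays together, the experiment 2 medians of the 38 genes were 0.25 and 0.23, against 0.02 and 0.03 over all genes.

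Set side by side, the complexes overlapped. The median genotype difference in experiment 1 was 0.16 with a break and 0.17 without a break for complex II, 0.11 and 0.07 for complex III, 0.11 and 0.04 for complex IV and 0.11 and 0.07 for complex V. Complex II had 1 of 4 genes called with a break and 2 of 4 without a break. The counts were 5 of 9 and 2 of 9 for complex III, 2 of 9 and 1 of 9 for complex IV, 7 of 12 and 3 of 12 for complex V, 0 of 2 for cytochrome c in both break states, and 1 of 2 in both for the NADH dehydrogenases. Over all genes, 19.2% were called higher with a break and 17.8% without a break. The shares called higher were 25% and 50% for complex II and 55.6% and 22.2% for complex III. They were 22.2% and 11.1% for complex IV and 58.3% and 25% for complex V. Differences within a complex were wider than those between complexes: they ran from 0.04 to 0.34 in complex III with a break and from 0.00 to 0.48 in complex V with a break, and no complex was tested against another. In experiment 2 complex II again had the highest median of these 4 complexes, 0.62 with a break and 0.60 without a break, followed by complex V (0.48 and 0.45), with complex IV (0.36 and 0.39) and complex III (0.35 and 0.32) below them.

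**Figure D3:**
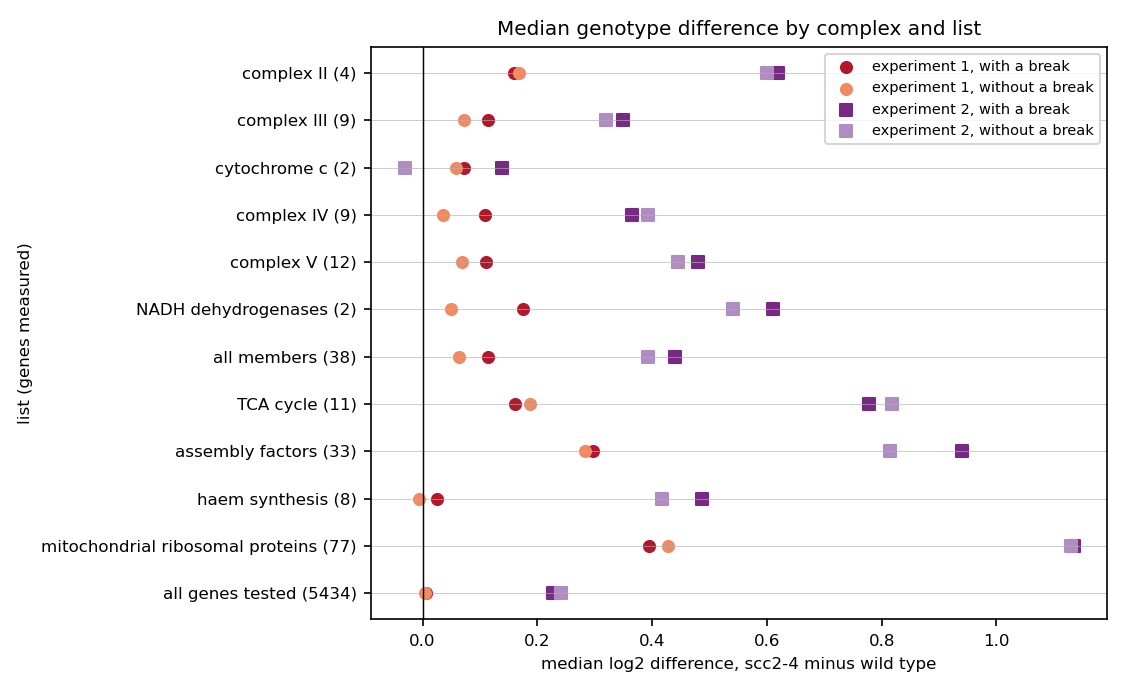
Median log2 difference between scc2-4 and wild type for each complex, for other mitochondrial lists and for all genes, with the number of genes measured in brackets; circles are experiment 1 and squares experiment 2, where genotype cannot be told apart from processing set. In experiment 1 the 38 genes lie at 0.11 and 0.06, below the assembly factors (0.30 and 0.28) and the mitochondrial ribosomal proteins (0.39 and 0.43).

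Assembly factors, mitochondrial ribosomal proteins and TCA cycle genes had higher medians than the 38 subunits, without a test between lists. For these and the lists that follow, the share over all genes with a break was 19.2% higher and 17% lower. Without a break it was 17.8% higher and 16.7% lower. Of 33 assembly factors, which build the complexes and insert their cofactors, 22 were higher and 1 lower in scc2-4 with a break and 23 were higher and none lower without a break, with medians of 0.30 and 0.28. COX17, a copper chaperone for complex IV, rose by 1.10 without a break, COX10, which acts in making the haem of complex IV, by 1.00, and PET117 by 0.62 (limma adjusted p = 1.27e-05, 0.000205 and 3.21e-06). Of 77 genes named MRP, MRPL, MRPS, RSM or MRX with a number, most of them proteins of the mitochondrial ribosome, 69 were higher and 1 lower with a break and 68 higher and none lower without a break, with medians of 0.39 and 0.43. MRPL49, MRPS8 and MRPL1 rose by 0.84, 0.79 and 0.73 without a break (adjusted p = 4.39e-05, 4.54e-05 and 0.00112).

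In the TCA cycle, which supplies the chain with NADH and succinate, 9 of 11 genes were higher with a break and 8 of 11 without a break and none was lower, with medians of 0.16 and 0.19. Without a break KGD1, of the alpha-ketoglutarate dehydrogenase complex, rose by 0.33, ACO1 (aconitase) by 0.33 and IDH1 (isocitrate dehydrogenase) by 0.25 (adjusted p = 2.33e-05, 9.36e-05 and 0.00975). In haem synthesis, 1 of 8 genes was higher and 1 lower with a break, and none was higher and 2 were lower without a break, with medians of 0.02 and −0.01. HEM13 and HEM14 fell by 0.41 and 0.22 without a break (adjusted p = 0.012 and 0.0133). In experiment 2 both were higher in scc2-4 without a break, by 1.34 and 0.15, and all 8 genes were positive in both break states, with medians of 0.49 with a break and 0.42 without a break. The median of all genes was 0.23 with a break and 0.24 without a break there, and genotype and set cannot be told apart.

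Among 10 regulators of respiratory genes, 1 was higher and 3 lower in scc2-4 with a break, and none was higher and 3 were lower without a break. MIG1, a repressor used on glucose, fell by 0.44 without a break, ROX1, a repressor of hypoxic genes, fell by 0.32, and HAP3, a subunit of the Hap2/3/4/5 activator, fell by 0.14 (adjusted p = 0.00159, 0.0261 and 0.0081). In experiment 2 without a break, MIG1 differed by −0.68, ROX1 by 0.02 and HAP3 by 0.67, where the median of all genes was 0.24. Of 16 other subunits, inhibitors and carriers, 3 were higher and 3 lower with a break and 3 higher and 2 lower without a break, with a median of 0.07 in both. Their share called higher, 18.8% in both break states, was near that of all genes (19.2% with a break and 17.8% without a break). ATP19 and TIM11 rose by 0.42 and 0.26 without a break, and AAC1, a minor ADP/ATP carrier, fell by 0.77 (adjusted p = 4.22e-05, 0.000536 and 4.22e-07).

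The paralogue pairs were also compared within each array, since each has an aerobic and a low-oxygen form: CYC1 and CYC7 for cytochrome c, and COX5A and COX5B for a subunit of complex IV. The CYC1 minus CYC7 value in experiment 1 averaged 1.81 ± 0.36 in scc2-4 with a break and 1.38 ± 0.42 in wild type with a break, and 1.63 ± 0.47 in scc2-4 without a break and 1.29 ± 0.43 in wild type without a break (log2, SD, n = 3 each). The genotype difference was 0.38 (two-sided exact permutation test within break states, p = 0.135, adjusted p = 0.27 over the 2 ratios, smallest possible p 0.005). Between same-numbered arrays the difference was positive in 6 of 6 pairs, from 0.24 to 0.49. An exact sign-flip test over these pairs, added after the data were seen, gave p = 0.0312, the smallest it allows, and an adjusted p of 0.0625 over the 2 ratios. That test holds only if the numbers pair the arrays.

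COX5A was at 12.72, 12.98 and 13.08 in scc2-4 with a break, against 12.72, 12.97 and 12.90 in wild type with a break, and at 12.65, 12.68 and 12.82 in scc2-4 without a break, against 12.72, 12.67 and 12.95 in wild type without a break. COX5B was at 12.12, 11.99 and 11.86 in scc2-4 with a break, against 12.12, 11.82 and 11.86 in wild type with a break, and at 12.13, 12.07 and 11.91 in scc2-4 without a break, against 12.05, 12.08 and 11.66 in wild type without a break. The genotypes overlapped for both genes, and the genotype difference of COX5A minus COX5B was −0.08 (two-sided exact permutation test, p = 0.665, adjusted p = 0.665). It was positive in 3 of 6 same-numbered pairs (exact sign-flip test, p = 0.5, adjusted p = 0.5).

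Experiment 2 gave other values for both pairs, with genotype and set not told apart. The COX5A minus COX5B value averaged 2.86 ± 0.21 in scc2-4 with a break (n = 4) and 1.30 ± 0.18 in wild type with a break (n = 3), and 3.46 ± 0.27 in scc2-4 without a break and 1.59 ± 0.16 in wild type without a break (log2, SD, n = 4 each). COX5B itself was at 10.66, 10.45, 10.32 and 10.27 in scc2-4 with a break, against 11.52, 11.23 and 11.30 in wild type with a break, and at 9.70, 10.20, 9.71 and 9.80 in scc2-4 without a break, against 11.06, 11.24, 10.88 and 10.88 in wild type without a break. COX5B thus lay lower in scc2-4 than in wild type by 0.92 and 1.16 log2 units in experiment 2 (differences −0.92 and −1.16), and by neither in experiment 1 (0.05 and 0.11). The wild-type arrays themselves lay at 11.66 to 12.12 for COX5B in experiment 1 and at 10.88 to 11.52 in experiment 2.

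**Figure D4:**
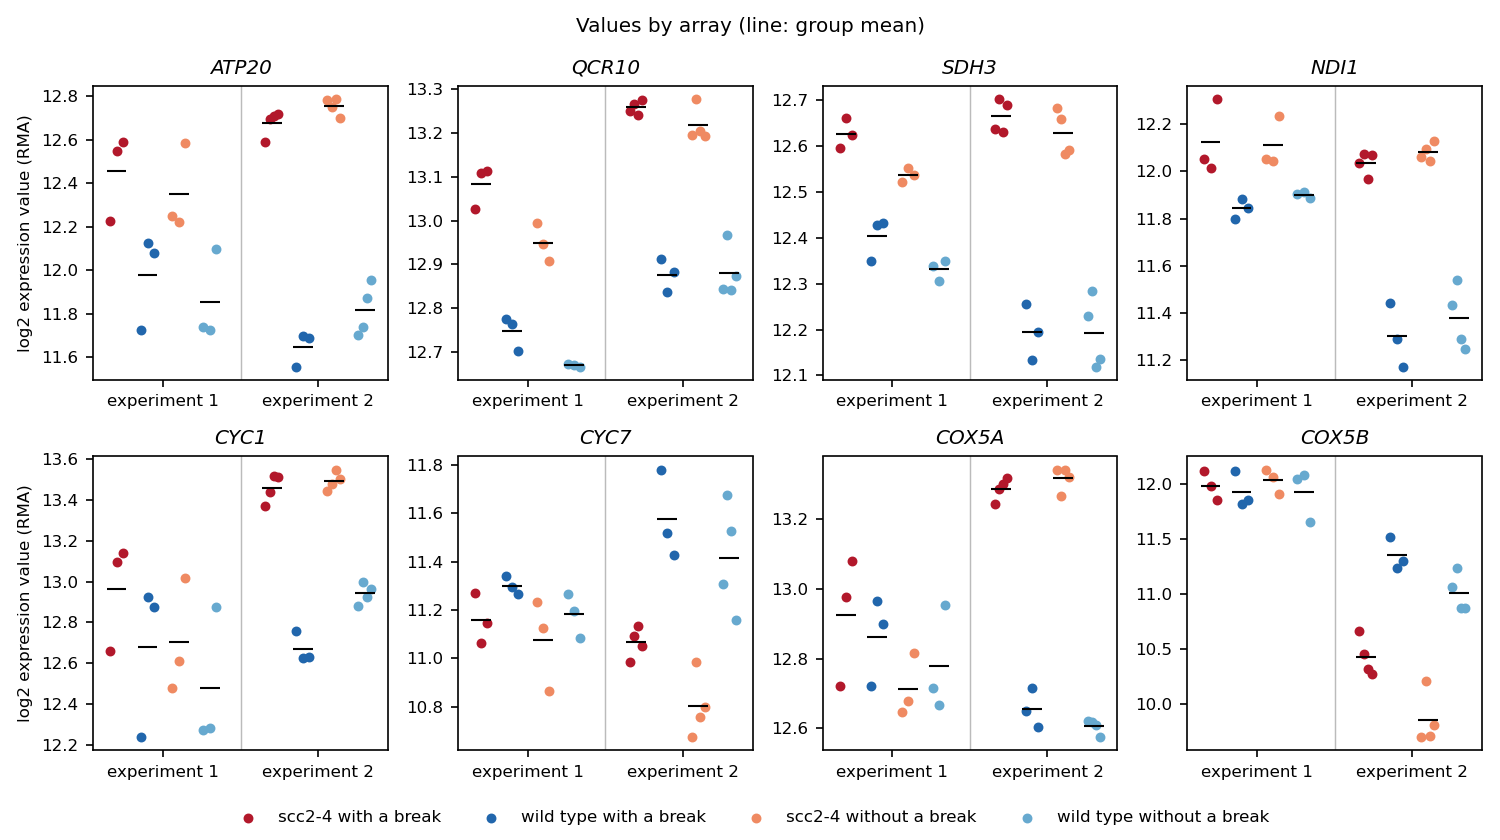
Log2 expression values of 8 genes on every array, by experiment and group, with a line at each group mean and axes that do not start at 0. ATP20, QCR10, SDH3 and NDI1 lie higher in scc2-4 in both experiments, whereas COX5A and COX5B separate the genotypes in experiment 2 and overlap between them in experiment 1.

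The second comparison set the groups with a break against those without one. In scc2-4, 2 of the 38 genes were higher with a break and none lower, beside 7.47% of all genes called (4.07% higher and 3.4% lower), as a mean of both experiments. In wild type 1 gene was higher and none lower, beside 14.6% of all genes called (8.34% higher and 6.22% lower). The shares among the 38 genes were 5.26% and 2.63%. At an unadjusted p under 0.05 in limma, 16 of the 38 genes differed in scc2-4 and 2 in wild type. Of the 1324 genes in the members' range of levels, 16.9% in scc2-4 and 14.5% in wild type were higher at that threshold. In scc2-4, 35 of the 38 genes were positive (median 0.06), and in wild type 24 (median 0.01). Over all genes the medians were 0.00 and −0.01. The difference of the break effects between genotypes was called for 0 of the 38 genes in limma, beside 3.92% of all genes (1.93% higher and 1.99% lower).

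The genes called in scc2-4 were QCR10 (0.09 ± 0.025, adjusted p = 0.0353) and ATP15 (0.08 ± 0.023, adjusted p = 0.0306). QCR10 had its values in experiment 1 given above, and in experiment 2 it was at 13.25, 13.27, 13.24 and 13.28 in scc2-4 with a break, against 13.20, 13.28, 13.21 and 13.19 without a break. The break difference was 0.13 in experiment 1 and 0.04 in experiment 2, where the groups overlapped. ATP15, a subunit of the central stalk, was at 12.82, 12.85 and 12.84 in scc2-4 with a break, against 12.72, 12.67 and 12.75 without a break, in experiment 1. In experiment 2 it was at 12.90, 12.97, 12.96 and 12.97 with a break, against 12.90, 12.88, 12.94 and 12.92 without a break, with differences of 0.13 and 0.04 in the experiments. Both calls were lost with the processing set as a block (adjusted p = 0.0747 for QCR10 and 0.0766 for ATP15). Leaving out single arrays of scc2-4 moved the count of 2 to between 0 and 11. It was 11 without scc2-4 with a break replicate 1 of experiment 1 and 4 without scc2-4 without a break replicate 2 of experiment 2. It was 0 or 1 without any other scc2-4 array except scc2-4 without a break replicate 3 of experiment 1, without which it was 3.

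In wild type the gene called was COX9, a small subunit of complex IV (0.10 ± 0.024, adjusted p = 0.00651). It was at 12.79, 12.78 and 12.70 in wild type with a break, against 12.71, 12.66 and 12.66 without a break, in experiment 1. In experiment 2 it was at 12.68, 12.64 and 12.66 with a break, against 12.56, 12.55, 12.49 and 12.57 without a break, where the groups did not overlap. The differences were 0.08 and 0.12, and the same gene differed by 0.03 and −0.01 in scc2-4.

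Most intervals of the break differences were narrow. For 35 of the 38 genes in scc2-4 and 35 in wild type the 95% interval lay within 0.25 log2 units on either side of 0, and for 33 in the difference between genotypes. The widest intervals reached 0.45 for COX5B in scc2-4, 0.37 for COX5B in wild type and 0.47 for CYC1 in the difference between genotypes. COX5B differed by 0.57 with a break in scc2-4 in experiment 2 and by −0.05 in experiment 1. In wild type it differed by 0.34 in experiment 2 and by 0.01 in experiment 1.

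The sign of the small differences moved with the experiment and the array class. In scc2-4, 37 of the 38 genes were higher with a break in experiment 1 (median 0.10) and 17 in experiment 2 (median −0.01). In wild type 33 were higher in experiment 1 (median 0.05) and 11 in experiment 2 (median −0.02). With the array class as a covariate, a setting chosen after the data were seen, the experiment 1 medians were 0.08 in scc2-4 and 0.02 in wild type, with 35 and 26 genes positive. The counts of genes called also moved with it: in scc2-4 limma called 10 genes with the covariate, all higher with a break, and in wild type 6, of which 2 were higher and 4 lower. Leaving out the 4 arrays that were alone in their class within a group gave 22 in scc2-4 and 6 in wild type, all higher with a break. In experiment 1 that left only class B arrays with a break and only class A arrays without a break. Break state and class therefore cannot be told apart in that setting. Over all genes the covariate gave 974 in scc2-4 and 1560 in wild type, and leaving out those 4 arrays 1020 and 885.

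**Figure D5:**
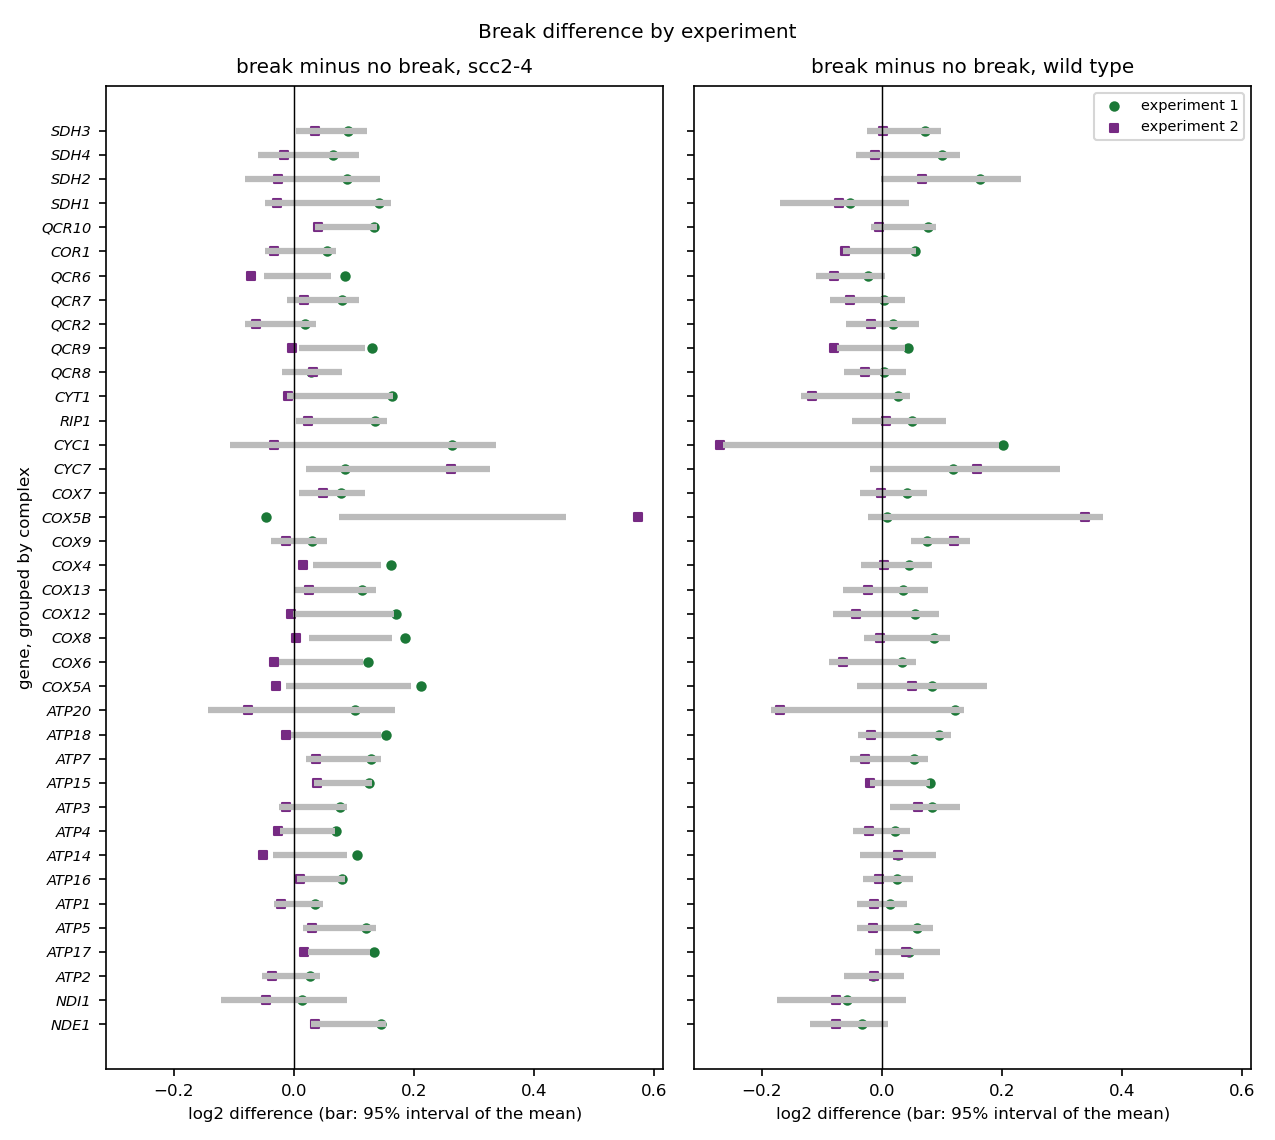
Log2 difference between groups with and without a break for each of the 38 genes, in scc2-4 on the left and wild type on the right; circles are experiment 1, squares experiment 2 and grey bars the 95% interval of their mean. Circles lie mostly right of 0 and squares close to it, and COX5B in scc2-4 has its experiment 1 and 2 values furthest apart (−0.05 and 0.57).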

How the data were processed

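Total RNA from 27 samples was hybridised to 1 array each. The log2 expression values were deposited by the authors; the submitters' processing notes name RMA and R 2.9.2. Whether arrays were processed together is not given in the sources used here. The platform annotation named 5468 of 5684 probe sets with 1 gene, 0 with several and 216 with none. Where several probe sets named a gene (34 genes), that of highest mean stood for it, giving 5434 genes.

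limma 3.58.1 in R 4.3.3 was fitted to all 27 arrays with 1 mean per genotype, break state and experiment, so 19 residual degrees of freedom gave the spread. The genotype differences are those of experiment 1, because in experiment 2 the processing set cannot be told apart from genotype. The break differences are the mean of both experiments. p-values are two-sided and were adjusted over all genes by Benjamini-Hochberg, with a threshold of 0.05. This departs from an earlier account of these data, which added the experiment as a term. The procedure was tested on simulated data with independent noise for each gene and array. Such data hold no array classes, so that test cannot show how calls behave when genes deviate together.

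Per complex, values by array are given for the genes with the largest and smallest absolute genotype difference without a break, for both paralogue pairs and for genes called in a break comparison; other genes are given by group. The genes and lists were chosen with earlier results of these data known. Same-numbered arrays were checked for shared deviations. Between genotypes in experiment 1 every pair correlated above 0.1 over all genes, though not every array correlated best with its own number. By that cut-off of 0.1 the numbers were used as pairs. These pairs also shared an array class, so pairing and class cannot be told apart. Between break states the numbers did not pair the arrays. Alternatives covered the model, normalization, weights, filters, probe sets and single arrays; the array class, the 4 lone arrays and the paired test of the paralogues were added after the data were seen.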

Additional observations from a re-analysis of the deposited data

Results flagged for a closer look

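In experiment 2, the groups of 4 arrays were checked for 1 array far from the other 3, as the gap to its nearest neighbour over the group's range, set against Dixon's critical value for 4 arrays. Of 114 checks, 3 passed, and chance alone passes about 5 percent. QCR10 in scc2-4 without a break had replicate 2 highest, at 13.28 against 13.21 for the nearest array (ratio 0.85). QCR2 in wild type without a break had replicate 3 highest, at 12.69 against 12.66 (ratio 0.951). QCR8 in wild type without a break had replicate 2 highest, at 13.21 against 13.09 (ratio 0.985).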

How the results depend on the processing

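Counts are given for the 38 genes and then for all genes, and the cause of each change was not tested. For scc2-4 minus wild type with a break (16 and 1970), the additive model gave 36 and 3356, experiment 2 alone 37 and 4500 and array weights 31 and 3074. Experiment 1 alone gave 13 and 1702, the class covariate 26 and 2432 and leaving out the 4 lone arrays 25 and 1951. For scc2-4 minus wild type without a break (9 and 1877), the additive model gave 36 and 3594, experiment 2 alone 37 and 4613 and array weights 24 and 2959. Experiment 1 alone gave 5 and 1569, median centring 5 and 1902 and the class covariate 14 and 2359. For the break in scc2-4 (2 and 406), the additive model gave 0 and 33, experiment 1 alone 0 and 36, array weights 27 and 2112, the class covariate 10 and 974 and the lone arrays left out 22 and 1020. The set block gave 0 and 368, experiment 2 alone 1 and 566 and quantile normalization 1 and 401. For the break in wild type (1 and 791), the additive model gave 0 and 103, experiment 1 alone 0 and 22, experiment 2 alone 3 and 1273, array weights 6 and 1271 and the class covariate 6 and 1560. The lone arrays left out gave 6 and 885. With those arrays left out, break state and array class coincide in experiment 1, in both genotypes. For the difference of the break effects (0 and 213), array weights gave 2 and 716 and the class covariate 2 and 508. The lone arrays left out gave 1 and 228. Over all genes the additive model gave 19, experiment 1 alone 11, and the set block and experiment 2 alone 139 each.

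With the replicate block, the genotype counts were 20 (2302 of all genes) with a break and 12 (2255 of all genes) without a break. The break counts were 6 of the 38 (657 of all genes) in scc2-4 and 2 (1119 of all genes) in wild type. The difference of the break effects gave 1, NDE1 (378 of all genes). The paralogue differences were the same in the replicate block, 0.38 and −0.08, with adjusted p of 0.0625 and 0.5 in an exact sign-flip test. Between break states the arrays share only a number: the 13 same-numbered pairs correlated at −0.67 to 0.70, and 5 were best with their own number.

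Leaving out 1 array at a time gave 11 to 28 of the 38 genes and 1612 to 2074 of all genes for the genotypes with a break, and 4 to 12 and 1540 to 1947 without a break. It gave 0 to 11 and 253 to 551 for the break in scc2-4, 1 to 2 and 638 to 872 in wild type, and 0 to 1 and 123 to 288 for their difference. The paralogue differences ranged from 0.249 to 0.505 for CYC1 minus CYC7 and from −0.165 to 0.0294 for COX5A minus COX5B. In experiment 2 alone they were 1.23 and 1.71.

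Signs turned in the additive model and in experiment 2 alone, in genes not called between genotypes, and with normalization in differences close to 0. Without a break, in the additive model SDH1 was 0.35, CYT1 0.13, RIP1 0.13, ATP2 0.20, COX6 0.37, ATP17 0.22, NDE1 0.17, COX5A 0.38 and COX5B −0.62, and in experiment 2 alone SDH1 was 0.64, QCR8 −0.03, CYT1 0.24, RIP1 0.26, ATP2 0.37, COX6 0.65, ATP17 0.38, NDE1 0.38, COX5A 0.71 and COX5B −1.16. With a break, COX9 was 0.18 in the additive model and 0.34 in experiment 2 alone, and COX5B was −0.45 and −0.92. Median centring turned COX8 (−0.012), COX12 (−0.001) and ATP5 (−0.011) without a break and ATP2 (−0.003) with a break. Quantile normalization turned CYT1 (0.009) and ATP17 (0.014) without a break and COX9 (0.015) and ATP2 (−0.012) with a break.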
